A study of Mus musculus with 6 samples.

Results

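The genes described here build the proton pump that acidifies lysosomes and the resorption pit of osteoclasts, the chloride exchanger that works beside it, and the machinery that carries lysosomes to the ruffled border. They were chosen by name, as rows of the deposited table whose gene symbol is on a list of 31 genes, and all 31 were found among the 20938 genes of the table. The list holds 8 genes of the membrane sector V0 of the vacuolar ATPase, 8 of its cytosolic sector V1, 2 of its accessory proteins, 2 of the chloride exchanger and 11 of lysosome trafficking. Their RNA was sequenced from RAW264.7, a line of mouse macrophages able to fuse into bone-resorbing osteoclasts, which the labels give as macrophage from bone marrow. All 6 samples were put under osteoclast-inducing conditions. The solvent DMSO was given to 3 of them, and 8 µM of the plant isoflavone neobavaisoflavone (NBIF) to the other 3. No sample of uninduced cells is part of the comparison, so it shows a difference between 2 kinds of induced culture and not a change from a starting state. The comparison asks how the compound acts on cells that are forming osteoclasts.

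The vacuolar ATPase is a rotary pump in which V1 splits ATP and turns a ring in V0 that carries protons across the membrane. In osteoclasts the pump is delivered to the ruffled border when lysosomes and late endosomes fuse with the plasma membrane facing the bone, and the acid that it secretes there dissolves mineral. Chloride follows through the exchanger ClC-7, and loss of the pump's a3 subunit (encoded by Tcirg1), of ClC-7, of its partner Ostm1, of Snx10 or of Plekhm1 is a known cause of osteopetrosis, a disease of too dense bone.

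The values are FPKM (fragments per kilobase of gene, scaled to the fragments sequenced). They are per length, but the gene lengths used are not given. Levels set side by side between genes therefore depend on lengths that are unknown here. The FPKM summed to between 484603 and 494172 per sample over 13073 to 13415 genes above 0. FPKM do not give the depth; relative to DMSO 1, the spacing of the smallest values put it at 0.886 to 1.09. On the log2(FPKM + 1) scale, pairs of samples had Pearson correlations of 0.993 to 0.996 when they shared a treatment and 0.986 to 0.989 when they did not. Whether the replicates are separate cultures is not labelled, so p-values reflect the spread among these samples alone, possibly a technical one. Of 8 osteoclast markers tested, 5 were lower with NBIF, while Dcstamp, Itgb3 and Oscar did not pass (log2 changes of -0.16, -0.11 and 0.07). The summed level of the osteoclast markers was 3565 to 3787 FPKM in DMSO and 2280 to 2800 in NBIF. Most of it was Ctsk, with 2548 to 2746 FPKM in DMSO and 1724 to 2186 in NBIF. All 8 macrophage markers tested were lower, with sums of 2317 to 2490 and 1409 to 1468 FPKM. Of the 9 listed for each type, the osteoclast marker Calcr and the macrophage marker Mertk were below the filter, at no more than 0.306 and 0.0560 FPKM. The summed markers of T cells and neutrophils reached at most 0.309 FPKM in any sample, those of osteoblasts and fibroblasts at most 1.33 and those of dendritic cells 1.90 to 2.18 in DMSO and 1.57 to 2.13 in NBIF. Of these genes Cd8a, S100a9, Elane and Siglech were listed at 0 in every sample, and Zbtb46 of dendritic cells, the one tested, did not pass. The part of these marker shifts in the results was not tested, and in bulk RNA fewer cells of a type cannot be told apart from less RNA per cell.

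Genes of the pump were among the most strongly expressed in these cells. Tcirg1, the a3 subunit of osteoclasts, ranked 26 among all genes by its mean over the 6 samples, at 1733 FPKM. The catalytic subunit gene Atp6v1a ranked 29, at 1591 FPKM, and Atp6ap2, whose product (the prorenin receptor) helps assemble the pump, ranked 41 at 1325 FPKM. Subunits of the same machine were far from equal at the RNA level. Within the 8 listed genes of each sector, the highest V0 gene stood 24.5 times above the lowest and the highest V1 gene 26.5 times above the lowest. Among the 8 listed V0 genes, which leave out the still higher Atp6v0d2 (3911 FPKM), Tcirg1 was followed by Atp6v0b (974 FPKM), Atp6v0c (850) and Atp6v0e (744), which encode small membrane subunits, and by Atp6v0d1 (432), which encodes the stalk that couples the ring to V1. Atp6v0a2 (174), Atp6v0e2 (73.1) and Atp6v0a1 (70.6) closed the order. Among the 8 listed V1 genes, Atp6v1a was followed by Atp6v1b2 (762), Atp6v1g1 (419), Atp6v1h (263), Atp6v1c1 (255), Atp6v1d (161), Atp6v1f (86.1) and Atp6v1e1 (60.0). Some neighbours in this order do not differ beyond their spread. Among DMSO samples the ranges of Atp6v0b and Atp6v0c overlapped, as did those of Atp6v1h and Atp6v1c1. Over all 6 samples those of Atp6v0c and Atp6v0e and of Atp6v0e2 and Atp6v0a1 overlapped too. Levels of genes with near-identical copies are uncertain, because reads that match several places may be dropped or shared. A share of 32.5% of the 50-base stretches of the Atp6v0c transcript also lies in other annotated transcripts, mostly those of the processed pseudogene Atp6v0c-ps2. This share was 19.2% for Atp6v1g1, 18.9% for Lamtor3, 18.4% for Lamtor1, 16.2% for Rab7 and 12.6% for Atp6v1f. For Atp6v0a2 it was 10.8%, which lay in the overlapping antisense gene 4930404A12Rik and not in a copy elsewhere.

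**Figure D1:**
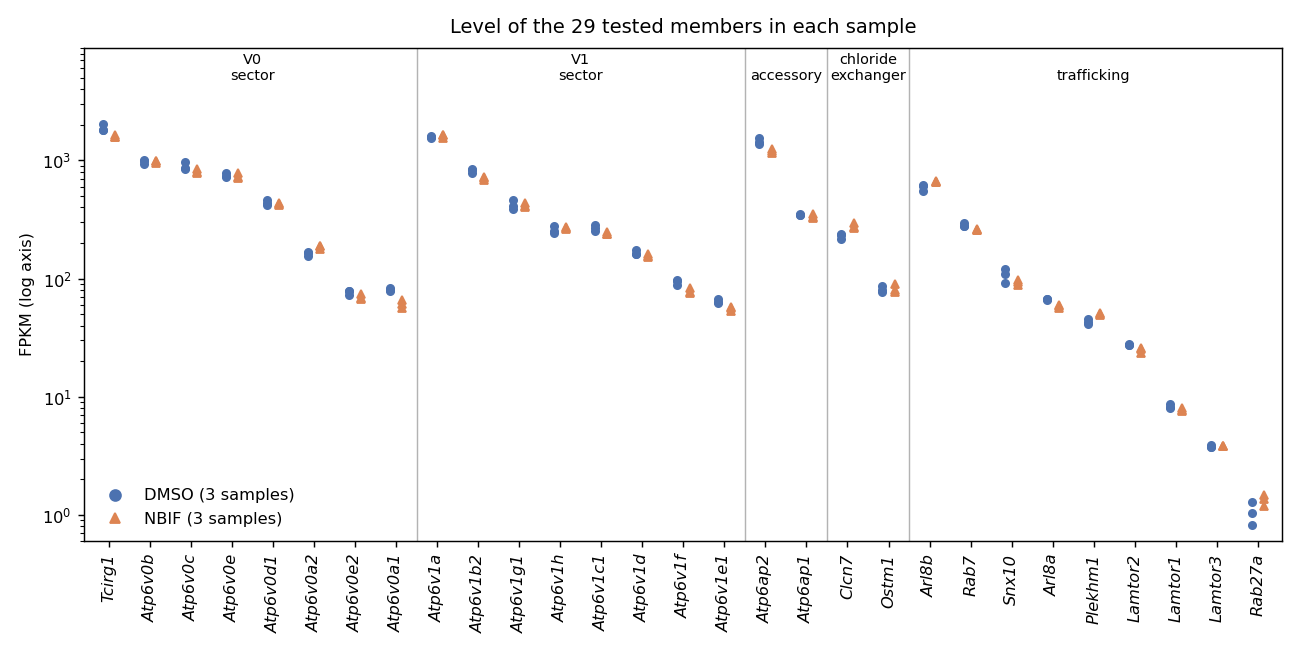
FPKM on a log axis for the 29 tested members, ordered by mean level within each role, with 3 DMSO samples (circles) and 3 NBIF samples (triangles). Tcirg1, Atp6v1a and Atp6ap2 lie above 1000 FPKM in every sample, and Rab27a lies near 1 FPKM.

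With NBIF, 10 of the 29 members that could be tested differed, 7 lower and 3 higher, by limma on log2(FPKM + 1) at a Benjamini-Hochberg adjusted p under 0.05. Over all 9936 genes tested, those with a mean of at least 1 FPKM, 18.6% were called (10.5% higher and 8.08% lower). The members' share of 34.5% lay above this background. The members were chosen with earlier results of these data known, and the difference between the shares was not tested. Median-ratio scaling turned the split over all genes from 1047 higher and 803 lower to 705 and 1003. Changes were small. Among the called members the mean fell by 24.2% at most (Atp6v0a1) and rose by 20.8% at most (Clcn7). The groups did not overlap for 16 of the 29 members, 12 lower and 4 higher, where 39.0% of all tested genes were apart (24.6% higher and 14.3% lower). The 2 members not tested were Rab38 and Syt7, whose means were below 1 FPKM.

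**Figure D2:**
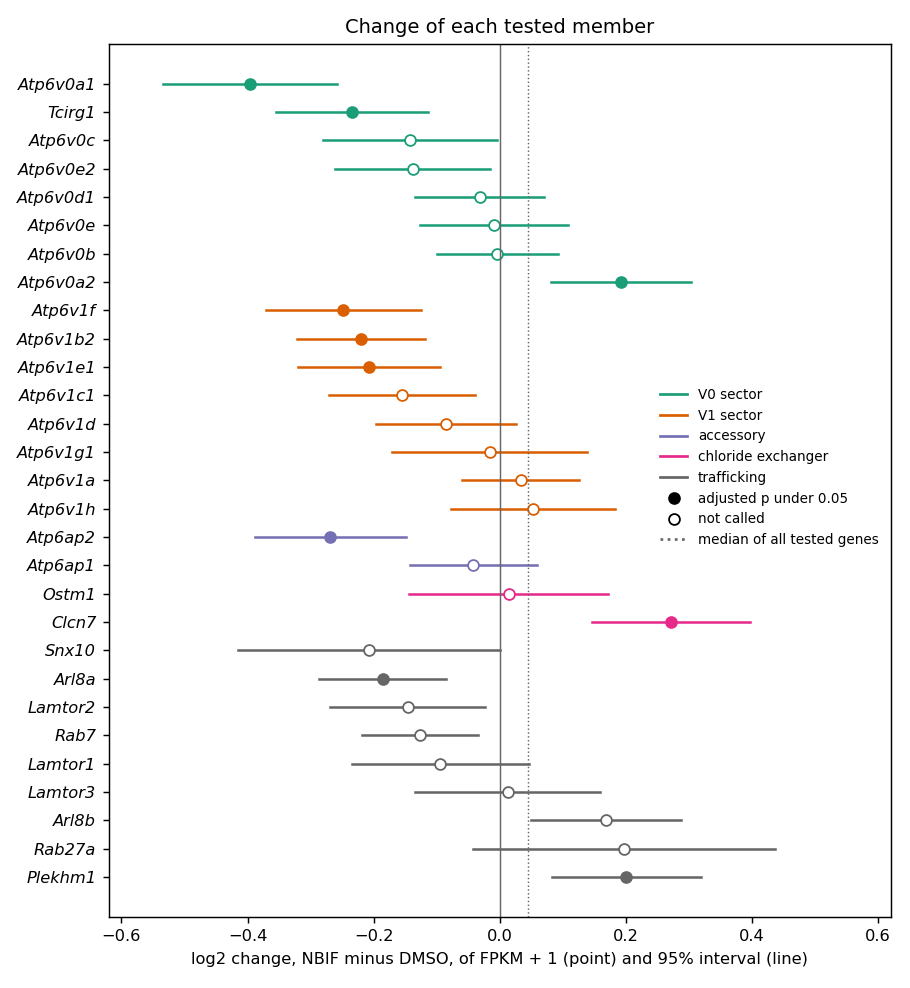
The log2 change of FPKM + 1 (NBIF minus DMSO, point) with its 95% interval (line) for each tested member, coloured by role, with filled points for an adjusted p under 0.05. Points fall on both sides of 0 within V0 and within trafficking, and the 3 called V1 genes all lie below 0; the dotted line marks the median of all tested genes, 0.04.

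Of the 8 V0 genes, 1 rose and 2 fell, while 5 missed the threshold. The 3 called genes were the 3 paralogs of the a subunit, the large membrane protein that gives the protons their path and steers the pump to its compartment. Atp6v0a1 (a1, chromosome 11, 101009452 to 101063719 in GRCm38) had 79.0, 79.5 and 82.7 FPKM in the DMSO samples and 65.5, 56.3 and 61.0 in the NBIF samples. Every NBIF sample was below every DMSO sample, and the log2 change was -0.40 ± 0.06 (SE; limma adjusted p = 0.00324). Tcirg1 (a3, chromosome 19, 3896050 to 3907133) had 1799, 1805 and 2021 FPKM in DMSO and 1565, 1645 and 1564 in NBIF. DMSO 3 was the highest, the groups did not overlap, and the log2 change was -0.23 ± 0.05 (adjusted p = 0.0177). Atp6v0a2 (a2, chromosome 5, 124628576 to 124724455) went the other way, from 165, 155 and 167 FPKM to 178, 190 and 189. All its NBIF samples lay above all its DMSO samples, with a log2 change of 0.19 ± 0.05 (adjusted p = 0.0277). The Tcirg1 call was lost without NBIF 1 (limma adjusted p = 0.0700), without NBIF 3 (0.0662) and without the filter on low genes (0.0719). That of Atp6v0a2 was lost in 4 of 6 fits that left out a sample, at adjusted p-values up to 0.103. Antisense exons overlap 9.86% of the exon bases of Atp6v0a2, and without a stated strand setting such reads cannot be told apart.

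**Figure D3:**
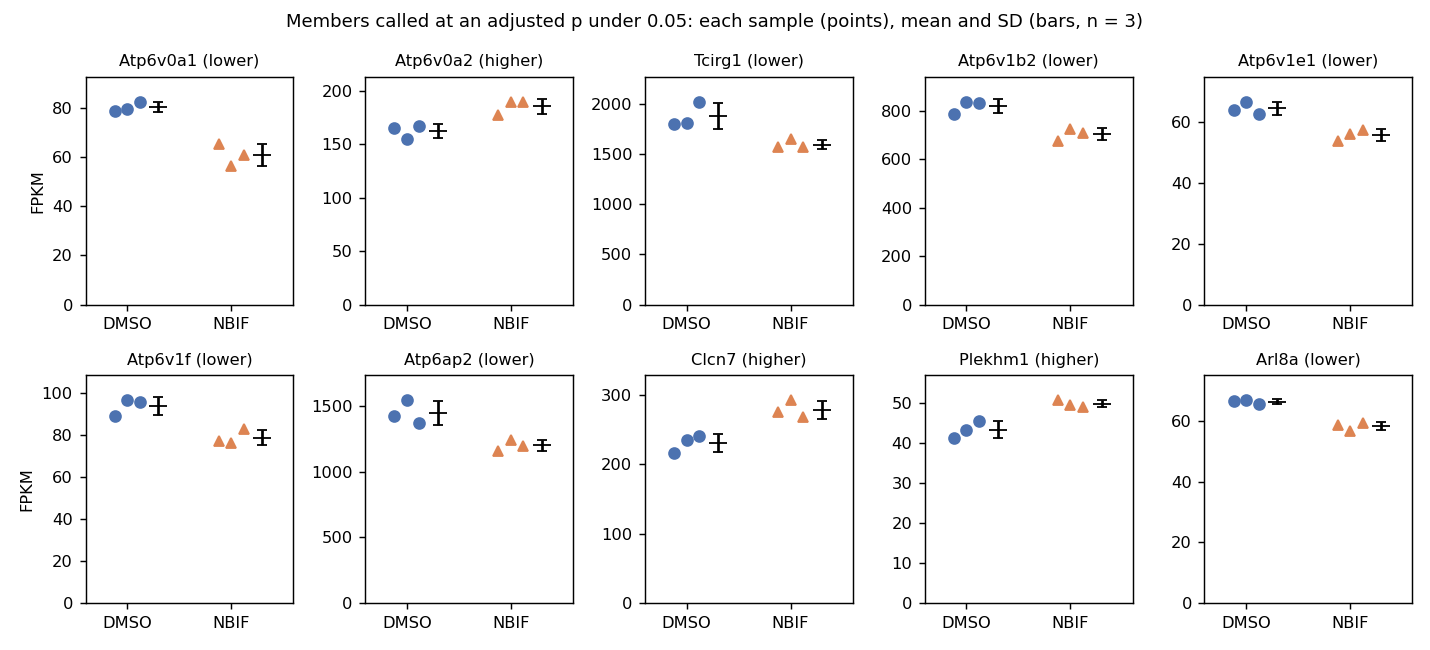
FPKM of each sample for the 10 called members (circles, DMSO; triangles, NBIF), with the mean and SD of 3 samples beside them, on axes that start at 0. In all 10 panels the 3 NBIF samples lie on one side of the 3 DMSO samples; Atp6v0a2, Clcn7 and Plekhm1 are the panels in which NBIF is higher.

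Tcirg1 and Atp6v0a1 were lower and Atp6v0a2 higher with NBIF, and the shares of the a paralogs shifted. Summed over the paralogs, the a subunit had 2118 ± 133 FPKM with DMSO and 1838 ± 45.9 with NBIF (means with SD of 3 samples each). Tcirg1 held 88.1%, 88.5% and 89.0% of that sum in DMSO and 86.6%, 87.0% and 86.2% in NBIF. Its share was lower in every NBIF sample, by 1.94 percentage points on average. Atp6v0a2 held 7.35% to 8.07% in DMSO and 9.82% to 10.4% in NBIF, and Atp6v0a1 went from 3.80% ± 0.139 to 3.32% ± 0.323. The kidney isoform gene Atp6v0a4 was listed at 0 in all samples. These shares are described without a test; an exact permutation test of 3 samples against 3 cannot give a p below 0.1.

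The 5 other V0 genes did not pass. Atp6v0b had 935, 1005 and 987 FPKM in DMSO and 949, 984 and 986 in NBIF, a log2 change of -0.00371 with a 95% interval from -0.10 to 0.09. For Atp6v0e the interval ran from -0.13 to 0.11 and for Atp6v0d1 from -0.13 to 0.07. Atp6v0c, which makes most of the proton-carrying ring, had 855, 852 and 972 FPKM in DMSO and 782, 852 and 790 in NBIF. NBIF 2 and DMSO 2 nearly met, and the adjusted p was 0.140. Atp6v0e2, the less abundant e paralog, had 76.7 ± 3.11 and 69.6 ± 3.29 FPKM (adjusted p = 0.111), and its share of the e subunit went from 9.32% ± 0.214 to 8.58% ± 0.150 without overlap of the samples. Atp6v0d1 held 9.63% ± 0.930 of the d subunit in DMSO and 10.3% ± 0.316 in NBIF, and the samples overlapped. The rest belonged to Atp6v0d2, the osteoclast form of the d subunit. The median log2 change of the V0 genes was -0.09, against 0.04 for all tested genes, and it turned to 0.03 after quantile normalization.

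**Figure D4:**
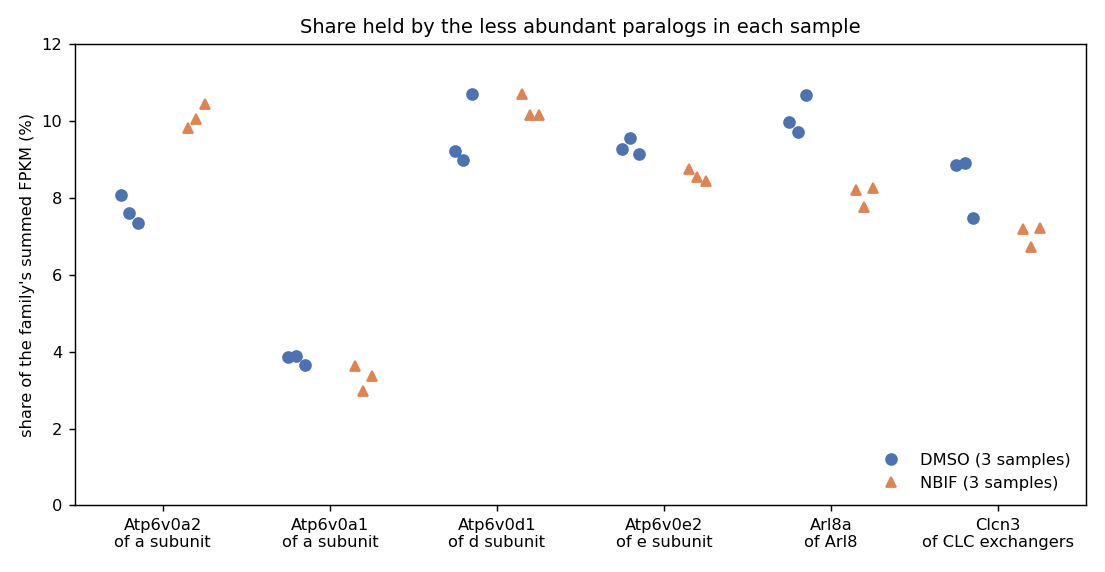
Share of a paralog in the summed FPKM of its family in each sample, in percent (circles, 3 DMSO samples; triangles, 3 NBIF samples). Atp6v0a2 is higher in every NBIF sample, Atp6v0a1, Atp6v0e2, Arl8a and Clcn3 are lower in every NBIF sample, and the Atp6v0d1 samples overlap.

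Within V1, 3 of 8 genes fell, 0 rose and 5 did not pass, with a median log2 change of -0.12. Atp6v1b2 encodes the nucleotide-binding B subunit that alternates with the catalytic A subunit. It had 787, 838 and 834 FPKM in DMSO and 677, 726 and 708 in NBIF (chromosome 8, 69088646 to 69113711). No samples overlapped, and the log2 change was -0.22 ± 0.04 (limma adjusted p = 0.0112), but -0.09 after quantile normalization (adjusted p = 0.286). Atp6v1f, a part of the central rotor, had 88.9, 96.5 and 95.3 FPKM in DMSO and 77.0, 76.1 and 82.7 in NBIF. Its log2 change was -0.25 ± 0.05 (adjusted p = 0.0149). Atp6v1e1, a part of the outer stalks that hold the pump's head still, had 64.0, 66.6 and 62.6 FPKM and then 53.6, 56.0 and 57.3. It changed by -0.21 ± 0.05 (adjusted p = 0.0217), again without overlap. Of these calls, that of Atp6v1f was lost without NBIF 1 and without NBIF 2, at adjusted p-values of up to 0.0621. The call of Atp6v1b2 was lost without NBIF 1 (0.0545), and that of Atp6v1e1 in 4 of 6 fits that left out a sample (up to 0.0892). Without NBIF 1 no V1 gene was called.

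Atp6v1a, which encodes the catalytic A subunit, had 1535, 1603 and 1581 FPKM in DMSO and 1544, 1647 and 1637 in NBIF, a log2 change of 0.03 with an interval from -0.06 to 0.13 (adjusted p = 0.613). Atp6v1h, the regulatory subunit, and Atp6v1g1, a stalk subunit, had intervals from -0.08 to 0.18 and from -0.17 to 0.14. Atp6v1c1, which joins the stalks to V0, had 268, 285 and 254 FPKM in DMSO and 238, 248 and 239 in NBIF. These samples did not overlap, yet the adjusted p was 0.0672, and it was 0.0232 without DMSO 3. Atp6v1d, the rotor shaft, had 166 ± 7.84 and 156 ± 4.06 FPKM (adjusted p = 0.257). Hardly any RNA of the other V1 isoforms was present. Atp6v1b1 and Atp6v1e2 were listed at 0 in all samples, Atp6v1c2 reached 0.135 FPKM and Atp6v1g3 reached 0.0222 FPKM. The neuronal isoform gene Atp6v1g2 had 1.54 ± 0.121 FPKM without and 2.00 ± 0.116 with the compound (adjusted p = 0.0672), or 0.361% to 0.483% of the G subunit sum.

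Summed over its 8 listed genes, V0 had 5247 ± 269 FPKM in DMSO and 4857 ± 141 in NBIF, a ratio of 0.926. This sum leaves out Atp6v0d2, which alone had 4116 ± 298 FPKM in DMSO and 3706 ± 167 in NBIF. For V1 the sums were 3666 ± 126 and 3529 ± 103 FPKM, a ratio of 0.963. The V0 sums were just apart, with a lowest DMSO sum of 5039 and a highest NBIF sum of 5015. The V1 sums overlapped, at 3572 and 3597. Whether V0 and V1 differ from each other was not tested.

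Of the accessory protein genes, 1 fell and the other did not pass. Atp6ap2 (X chromosome, 12587801 to 12617049) fell from 1426, 1550 and 1371 FPKM in DMSO to 1162, 1242 and 1201 in NBIF. The samples did not overlap, and the log2 change was -0.27 ± 0.05 (limma adjusted p = 0.00968). This call held in every fit that left out a sample, at adjusted p-values of up to 0.0468, and was lost after quantile normalization (-0.18, adjusted p = 0.108). Atp6ap1, a pump accessory protein that also acts in assembly, had 345, 346 and 351 FPKM in DMSO and 324, 354 and 335 in NBIF. Its groups overlapped, with a log2 change of -0.04 and an interval from -0.14 to 0.06 (adjusted p = 0.547).

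Clcn7, which encodes the chloride/proton exchanger ClC-7 of lysosomes and the ruffled border, rose (chromosome 17, 25133391 to 25162104). It had 216, 235 and 240 FPKM in DMSO and 275, 293 and 267 in NBIF. All NBIF samples were above all DMSO samples, with a log2 change of 0.27 ± 0.05 (adjusted p = 0.0112), a rise of the mean by 20.8%. Together with Atp6v0a1 it was the member whose call held under all 16 alternatives, with adjusted p-values between 0.00744 and 0.0397. Ostm1, the partner that ClC-7 needs for stability, had 80.2, 87.2 and 77.1 FPKM in DMSO and 77.4, 89.8 and 79.8 in NBIF. Its values overlapped throughout, and the log2 change was 0.01 with an interval from -0.14 to 0.17 (adjusted p = 0.910). The other intracellular CLC exchangers were expressed at lower levels, and Clcn3, Clcn4, Clcn5 and Clcn6 did not pass. Clcn7 held 83.2% ± 2.03 of the summed CLC exchanger FPKM in DMSO and 85.2% ± 0.823 in NBIF, with overlap.

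Pump and exchanger genes are known targets of TFEB, TFE3 and MITF, transcription factors that bind the palindrome TCACGTGA of the lysosomal gene network and related E-boxes (CACGTG). RefSeq promoter windows (GRCm38.p6, 250 bases before to 50 after a gene's start) were found for 22 of the 31 members, in 31 windows. The other members had no window and were not searched, so the motif counts say nothing of them. TCACGTGA, searched on both strands, was in the windows of 4 members. That is 12.9% of member windows, against 0.974% of all 32851 windows and 1.96% of the windows of tested genes. A longer, 10-letter form of this palindrome was in 0 of the 31 member windows. That form was in 0.326% of all windows and 0.747% of those of tested genes. The stretches that hold TCACGTGA are shown because Clcn7, called higher, shares the motif with 3 genes that did not pass, Atp6v0d1, Atp6v0e and Atp6v1a. These 3 were added after their values were seen. Capitals mark TCACGTGA and any further CACGTG, and every sequence reads 5′ to 3′ on the gene's strand.
Clcn7, chr17:25133357-25133440, plus strand: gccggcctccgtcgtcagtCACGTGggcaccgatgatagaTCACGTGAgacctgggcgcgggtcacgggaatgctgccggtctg
Atp6v0d1, chr8:105566021-105566108, minus strand: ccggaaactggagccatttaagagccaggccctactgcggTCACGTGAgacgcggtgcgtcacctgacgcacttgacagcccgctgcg
Atp6v0e, chr17:26676358-26676445, plus strand: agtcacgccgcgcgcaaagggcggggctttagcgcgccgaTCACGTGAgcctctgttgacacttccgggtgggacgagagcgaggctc
Atp6v1a, chr16:44139344-44139431, minus strand: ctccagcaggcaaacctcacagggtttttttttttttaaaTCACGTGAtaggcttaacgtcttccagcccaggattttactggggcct
The motif lies within 6 bases of the RefSeq start of the window in Clcn7, Atp6v0d1 and Atp6v0e, and 132 bases before it in Atp6v1a. In GENCODE the genes Atp6v0e and Atp6v1a begin further upstream, at 26663231 and 44139705, so their stretches lie inside those gene bounds. Clcn7 is the one with a second CACGTG in its stretch. The members with CACGTG numbered 7, adding Atp6v0b, Lamtor1 and Rab27a to those 4, in 22.6% of member windows against 7.15% of all windows and 10.5% of those of tested genes. The M-box TCATGTG was in windows of 4 members (Atp6v0c, Clcn7, Lamtor1 and Lamtor2), 12.9% of member windows against 3.77% of all and 1.99% of those of tested genes. AP-1's TGAGTCA was in the window of Snx10, and the antioxidant element TGACNNNGC in those of Atp6v0a1, Atp6v1a and Rab7, at 3.23% and 9.68% of member windows against 5.20% and 12.4% of all and 3.50% and 14.4% of those of tested genes. The GC box GGGCGG was in 77.4% of member windows, 35.7% of all and 64.0% of those of tested genes. These matches are letters in a window and say nothing of binding in these cells.

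Of the 4 genes of these factors, 1 fell and 3 did not pass. Tfeb had 28.3, 30.9 and 47.6 FPKM in DMSO and 23.8, 14.9 and 21.6 in NBIF. Its groups did not overlap, DMSO 3 stood well above the rest, and the log2 change was -0.79 ± 0.21 (limma adjusted p = 0.0332). A robust prior (adjusted p = 0.120) or dropping the filter on low genes (0.0986) ended that call. So did leaving out DMSO 3 (0.0636), NBIF 2 (0.0912) or NBIF 3 (0.0638). Mitf had 13.3 ± 1.05 and 15.5 ± 0.897 FPKM (adjusted p = 0.0854), Tfe3 had 54.5 ± 1.68 and 49.8 ± 2.08 (0.122), and Tfec had 6.25 ± 1.91 and 5.94 ± 1.30 (0.898).

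Among the 9 tested trafficking genes, 1 rose, 1 fell and 7 did not pass, with a median log2 change of -0.09. The share called was 22.2%, near the 18.6% of all tested genes. Plekhm1, the adaptor that links Rab7 and Arl8 on lysosomes to the tethering complex HOPS, rose from 41.3, 43.3 and 45.6 FPKM to 50.9, 49.7 and 49.2. The samples did not overlap (log2 change of 0.20 ± 0.05, adjusted p = 0.0300). The call was lost in 5 of 6 fits that left out a sample, at adjusted p-values up to 0.107, and after median-ratio scaling and quantile normalization. Rab7, the late endosome GTPase that binds Plekhm1, had 281, 294 and 279 FPKM in DMSO and 259, 264 and 259 in NBIF. These did not overlap either, and the adjusted p was 0.0616 (log2 change of -0.13, interval from -0.22 to -0.03). Snx10, a sorting nexin required for acid secretion by osteoclasts, had 110, 120 and 92.1 FPKM in DMSO and 87.5, 96.9 and 93.1 in NBIF. DMSO 3 lay among the NBIF samples. The adjusted p of Snx10 was 0.150, and without DMSO 3 it was 0.0140 with a log2 change of -0.31.

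The Arl8 GTPases, which recruit kinesin and carry lysosomes to the cell edge, are encoded by paralogs of unequal level. Arl8a fell from 66.8, 67.0 and 65.5 FPKM to 58.6, 56.8 and 59.5 (log2 change of -0.19 ± 0.04, limma adjusted p = 0.0218). Arl8b, its more abundant paralog, had 603, 623 and 548 FPKM in DMSO and 656, 675 and 660 in NBIF. For neither gene did the groups overlap, but Arl8b missed the threshold (log2 change of 0.17, interval from 0.05 to 0.29, adjusted p = 0.0555). Arl8a held 10.1% ± 0.501 of the summed Arl8 FPKM in DMSO and 8.07% ± 0.277 in NBIF, lower in every NBIF sample. The Arl8 sum itself was 658 ± 39.7 and 722 ± 8.91 FPKM. The Arl8a call was lost in 5 of 6 fits that left out a sample, at adjusted p-values up to 0.0810.

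The remaining trafficking genes were lower in level. Lamtor1, Lamtor2 and Lamtor3 belong to Ragulator, which anchors Rag GTPases and mTORC1 on lysosomes. Lamtor2 had 27.6, 27.5 and 27.8 FPKM in DMSO and 25.5, 23.5 and 25.7 in NBIF (adjusted p = 0.0953). Lamtor1 had 8.32 ± 0.356 and 7.73 ± 0.212 FPKM (0.321) and Lamtor3 had 3.81 ± 0.0913 and 3.85 ± 0.0252 (0.913). The exons of Lamtor1 overlap by 18.7% with other genes, mostly with the opposite-strand gene Lrrc51, at 7.14 ± 0.890 and 8.82 ± 1.63 FPKM. The secretory GTPases and their fusion partner were hardly present. Rab27a, which docks lysosome-related organelles, had 1.29, 0.821 and 1.04 FPKM in DMSO and 1.46, 1.19 and 1.37 in NBIF (adjusted p = 0.230). Rab38, a GTPase of lysosome-related organelles, was listed at 0.0652, 0 and 0.0337 FPKM in DMSO and at 0 in all 3 NBIF samples. Syt7, a calcium sensor of lysosome exocytosis that osteoclasts are known to use, had 0.0156, 0.0289 and 0.132 FPKM in DMSO and 0.128, 0.0717 and 0.0880 in NBIF. Rab38 and Syt7 were not tested.

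Further genes of the same processes were taken from lists chosen by function. Of 92 found in the table, 80 were tested, and 5 rose, 9 fell and 66 did not pass, so 17.5% were called, near the background of 18.6%. Their median log2 change was 0.01. Among genes of pump assembly and regulation 2 of 10 fell and 0 rose. These were Oxr1, a TLDc protein of the family that binds the pump (21.4 ± 1.93 to 15.1 ± 0.466 FPKM, log2 change of -0.47), and Wdr7, which pairs with the rabconnectin Dmxl2 (23.5 ± 0.602 to 17.9 ± 0.711, -0.37). Of 7 genes of the other CLC exchangers and of bicarbonate exchange, Slc4a2 fell. It encodes the bicarbonate/chloride exchanger that keeps the cytosol of osteoclasts from turning alkaline, and it had 67.1, 72.9 and 74.9 FPKM in DMSO and 54.4, 56.6 and 53.8 in NBIF. The groups were well apart, with a log2 change of -0.38 ± 0.05 (limma adjusted p = 0.00254).

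A list of 15 genes held HOPS subunits, partners of Plekhm1 and related genes. Among them the HOPS subunit gene Vps16 rose by 0.19 on the log2 scale (limma adjusted p = 0.0395). Rufy4, which encodes a binding partner of Rab7 and Arl8, fell by 0.29 (0.00986). The Vps16 call was lost under 9 of the 16 alternatives, among them 5 of 6 fits that left out a sample. It was also lost with median-ratio scaling (limma adjusted p = 0.0925), quantile normalization (0.0631), no trend (0.0604) and the replicate block (0.0637). None of the 8 genes of BORC, the complex that recruits Arl8 to lysosomes, passed; the one with the highest level, Kxd1, had 30.7 ± 2.09 and 28.4 ± 0.463 FPKM (adjusted p = 0.263). Among 8 tested genes around Ragulator and the Rag GTPases, Slc38a9, the lysosomal arginine sensor gene, rose by 0.41 on the log2 scale (adjusted p = 0.00519), with 9.17 ± 0.574 FPKM in DMSO and 12.5 ± 0.729 in NBIF.

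Of 14 tested Rab regulators and effectors, 2 fell and 2 rose. Rab32, the closest relative of Rab38, had 7.18, 6.78 and 6.16 FPKM in DMSO and 3.73, 4.49 and 4.36 in NBIF. It fell by 0.57 on the log2 scale (adjusted p = 0.00276), and by 0.35 with a pseudocount of 5. Rab7b, a late endosome GTPase distinct from Rab7, fell by 0.45 (0.00445), and Tbc1d15, a GTPase-activating protein for Rab7, rose by 0.25 (0.0187), a call lost without NBIF 1 (0.0760) and without NBIF 3 (0.0607). The SNARE genes Stx4a and Vti1b, whose products drive membrane fusion at the cell surface and at late endosomes, fell by 0.35 and 0.34 (0.00183 and 0.00650), as the 2 called genes of 9. Of 3 genes of the PIKfyve complex, which makes a lipid of late endosomes, the phosphatase gene Fig4 rose from 3.91 ± 0.195 to 5.18 ± 0.0905 FPKM (log2 change of 0.33, or 0.19 with a pseudocount of 5; adjusted p = 0.0103). The osteoclast subunit gene Atp6v0d2 had 4108, 4419 and 3823 FPKM in DMSO and 3514, 3820 and 3784 in NBIF. Its groups were barely apart, and the adjusted p was 0.111, or 0.0367 without DMSO 3.

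**Figure D5:**
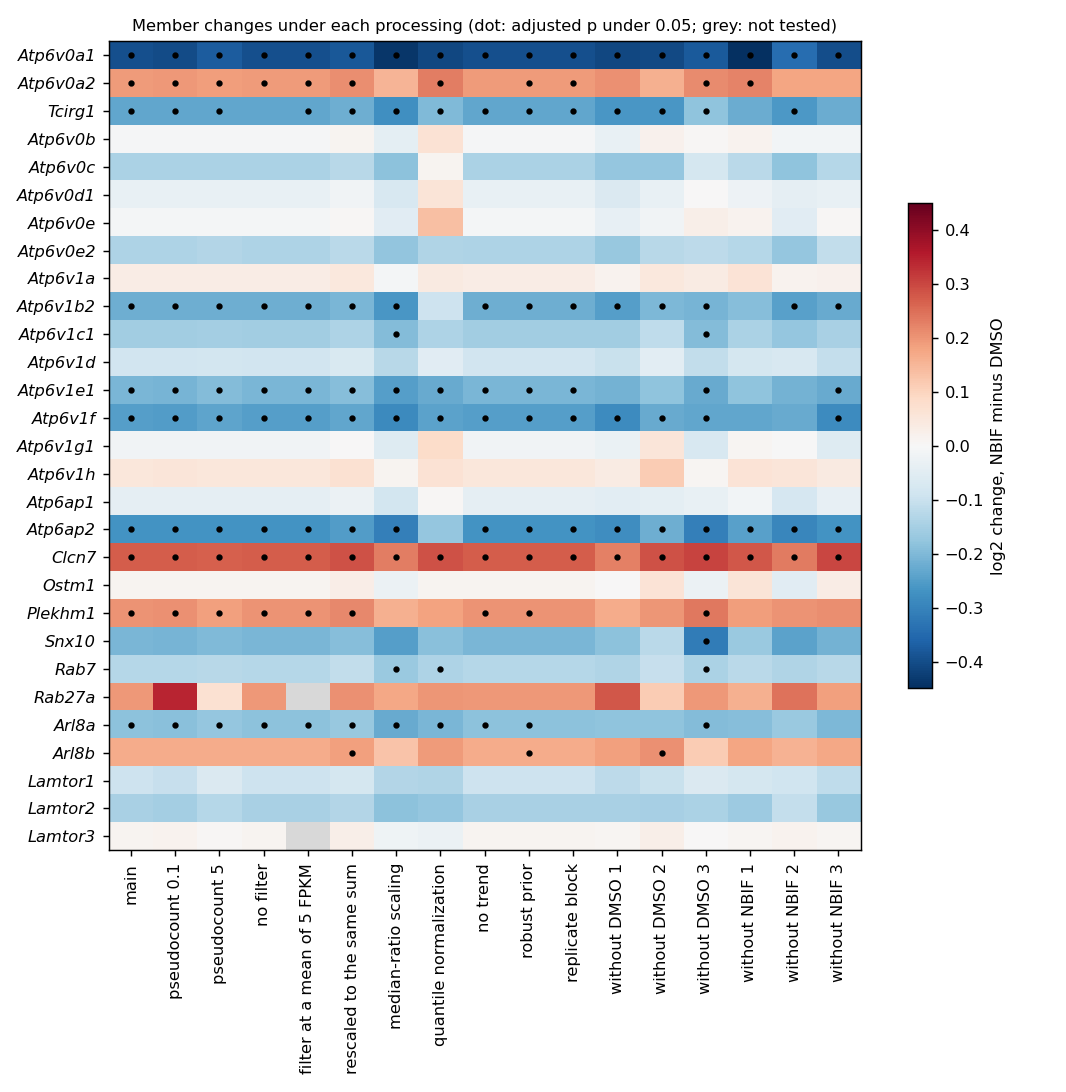
The log2 change (NBIF minus DMSO, colour) of each tested member under the main processing and 16 alternatives, with a dot where the adjusted p was under 0.05 and grey where a gene was filtered out. Atp6v0a1 and Clcn7 have a dot in every column, and the other 8 called members lack it in at least 1 column.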

How the data were processed

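The authors deposited 1 table of FPKM per gene and sample from 6 RNA libraries of RAW264.7 cells extracted with TRIzol, per the labels' protocols. The submitters' processing notes list, with no roles, featureCounts 1.5.0-p3 and HISAT2 2.0.5 among other tools, and a human build although the symbols are mouse, so the build is uncertain. Annotation and strandedness: not given in the sources used here. FPKM are not counts, so log2(FPKM + 1) was tested with limma 3.58.1 (two-sided, with trend) over 9936 genes, those averaging 1 FPKM or more, with Benjamini-Hochberg adjustment at 0.05. Fold changes on this scale understate those of low genes. The script was tested on simulated data. Gene positions and shared 50-base stretches came from GENCODE M21 (GRCm38), promoters from RefSeq. The members and lists were chosen with earlier results of these data known. Named were all members, other isoforms of their subunits and, per further list, up to 3 called genes with the largest log2 change or, with none called, the gene with the highest mean. The 16 alternatives changed the pseudocount, filter, scaling, prior, replicate block or left out a sample. No counting interval can be given without depth. Of the marker lists, that of B cells is not reported here.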

Additional observations from a re-analysis of the deposited data

How the results depend on the processing

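Of the 10 called members, Atp6v0a1 and Clcn7 kept their call under all 16 alternatives, the other 8 lost it under at least 1, and 0 changed sign. Of the 19 uncalled members 4 were called somewhere and 9 changed sign. Leaving out 1 sample gave 493 to 1066 genes higher and 506 to 825 lower over all genes, 0 to 1 higher and 1 to 2 lower in V0, 0 to 4 lower in V1, 0 to 1 higher and 0 to 3 lower in trafficking, and 2 to 4 higher in the further lists. The fewest genes were called without NBIF 1. No V0 gene was higher with median-ratio scaling or without a trend (0 each), and 1 was lower without a filter. After quantile normalization the V0 median was 0.0344 and 0 accessory genes were lower. Trafficking genes called higher numbered 2 when rescaled to the same sum or with a robust prior, and 0 with median-ratio scaling or quantile normalization, under which 2 were lower. Their median was -0.0463 without a filter, -0.13 with a filter at 5 FPKM or median-ratio scaling, and -0.14 after quantile normalization. The further lists had 3 genes higher with median-ratio scaling, quantile normalization and the replicate block. Causes were not tested.

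Reversed signs were all of uncalled members. On rescaling they were Atp6v0b 0.0126, Atp6v0e 0.00672 and Atp6v1g1 0.000209. With median-ratio scaling they were Atp6v1a -0.00752, Ostm1 -0.0261 and Lamtor3 -0.0198. After quantile normalization they were Atp6v0b 0.0647, Atp6v0c 0.0116, Atp6v0d1 0.0571, Atp6v0e 0.137, Atp6v1g1 0.0812, Atp6ap1 0.00421 and Lamtor3 -0.0251. Without 1 sample, Atp6v0b ranged from -0.0343 to 0.0181, Atp6v0d1 from -0.0646 to 0.00212, Atp6v0e from -0.0498 to 0.0266, Atp6v1g1 from -0.0726 to 0.0535 and Ostm1 from -0.0496 to 0.0627.

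The labels number the replicates alike in both groups. Deviations of same-numbered samples correlated at 0.0784, 0.126 and 0.0355. Samples with different numbers were not compared in this way, so whether same-numbered samples share more than a number cannot be told. With the replicate block 892 genes were higher and 740 lower, and the calls of Plekhm1 (limma adjusted p = 0.0599) and Arl8a (0.0532) were lost, leaving 0 trafficking genes called in either direction. Without counts the precision of low values is unknown, which bears on Rab27a, Rab38 and Syt7.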
